A study of Mus musculus with 230 samples.

Results

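Cells with high Eomes and with few or no transcripts of the proliferation genes Top2a and Mki67 were compared between embryonic day 15 (E15) and postnatal day 2 (P2). A cell was taken when Eomes was at 5 RPKM or more (reads per kilobase of transcript model and mega-read of library) and Top2a and Mki67 were both under 1 RPKM, so the members were chosen by measured levels of these 3 genes. Of the 230 single cells, 76 met this rule: 33 of the 121 E15 cells (27.3%, 95% interval 19.6 to 36.1%) and 43 of the 109 P2 cells (39.8% of those with any reads, 30.5 to 49.7%, since 1 column held none). These intervals, and all intervals of shares below, are exact (Clopper-Pearson) and cover counting error only. Among all cells with Eomes at 5 RPKM or more, 30 of 63 at E15 (47.6%) and 22 of 65 at P2 (33.8%) carried Top2a or Mki67 at 1 RPKM or more and were not members.

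All mice were C57BL/6 with the genotype Neurog2CreERT x Ai14+/+, in which tamoxifen activates a Cre recombinase expressed from Neurog2 regulatory sequences and the recombined Ai14 allele then makes the red protein tdTomato. Every animal, of either age, had received tamoxifen 12 h before the tissue was taken, and the red cells were sorted from the pallium at E15 and from the dorsal subventricular zone at P2. The reporter therefore marks cells in which the Neurog2 sequences were recently active together with whatever those cells became within that time, and age and dissected region differ together. Each cell gave its own full-length cDNA library on a microfluidic chip.

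Animals and litters are not named in the labels. Each age is therefore 1 sample, its cells are not replicates, and neither a test nor a standard error accompanies any value. Titles of P2 cells carry the word plaque with 1 or 2, read as plate 1 and plate 2. Titles of E15 cells come in 2 formats, termed set A and set B, and each is treated as 1 plate by inference. In set B, 8 cells, 2 of them members, are numbered 62 to 69. Some of these repeat a second title number of other set B cells, and all were kept. E15 set A held 13 member cells, E15 set B 20, P2 plate 1 22 and P2 plate 2 21. The level of a gene is the mean over cells of log2(RPKM + 1), a difference is P2 minus E15 on that scale, and the range beside it is over the 4 ways of pairing a P2 plate with an E15 plate. Detection in a cell means 1 RPKM or more, and genes detected in 10% or more of the member cells of either age are termed measured. It is called higher or lower at P2 when the difference was at least 1 log2 unit in that direction in all 4 pairs.

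In the developing cortex, radial glia make intermediate progenitors, which in turn divide to give glutamatergic neurons. The T-box factor Eomes (Tbr2) is switched on in intermediate progenitors, following the proneural factor Neurog2, and its protein and transcript persist for a while in the newborn neurons they produce. Newborn neurons then turn on Neurod factors, leave the germinal zones by radial migration and extend axons, a phase that depends on semaphorin, neuropilin and ephrin signalling. Deep layer neurons are born before upper layer neurons, and glutamatergic neurogenesis declines around birth.

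The values that set the rule are a description of the selection. Eomes (chromosome 9, 118478212 to 118486132, plus strand, GRCm38) ranged from 5.49 to 152 RPKM in the E15 members, with a median of 30.0, and from 5.08 to 260 RPKM at P2, with a median of 57.5. The members nearest the limit had 5.49, 5.97 and 6.06 RPKM at E15 and 5.08, 5.25 and 5.79 at P2, while the nearest non-cycling cells outside it had 4.64, 4.29 and 3.18 RPKM at E15 and 4.24, 3.78 and 3.73 at P2. Eomes was under 10 RPKM in 6 E15 and 8 P2 members. The higher of Top2a and Mki67 reached 0.669 RPKM in an E15 member and 0.469 in a P2 member, and began at 1.13 and 1.67 RPKM in the Eomes-high cells left out. Both genes were at exactly 0 in 22 of the 33 E15 and 36 of the 43 P2 members.

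The other markers named for these cells, Neurog2 and Btg2, were each missing from many members. Neurog2 was detected in 7 of 33 E15 members, all of them in set B, and in 10 of 43 P2 members. The highest values were 20.0 (E15) and 127 RPKM (P2), and the median was 0 at both ages. Btg2, an antiproliferative gene that marks neurogenic divisions, was detected in 21 E15 members (median 15.7, highest 261 RPKM) and in 16 P2 members (median 0, highest 441). Both genes together were detected in 5 E15 members (15.2%, 5.11 to 31.9%) and 6 P2 members (14.0%, 5.30 to 27.9%). The level of Btg2 differed by -1.38 (-2.16 to -0.82), short of the rule for a call, and its sign turned to 0.038 on the log2 of the mean RPKM and to 1.46 when 10 cells of each age were matched on detected genes.

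Neurod6, a transcription factor of postmitotic glutamatergic neurons, was in contrast at 5 RPKM or more in all 33 E15 members (100%, 89.4 to 100%) and in 35 of 43 P2 members (81.4%, 66.6 to 91.6%). Dcx, a microtubule-associated protein of migrating neurons, was detected in all 33 E15 and 42 of 43 P2 members. These values go against reading the cells as intermediate progenitors in general, and they are called by their rule here: non-cycling Eomes-high cells. Among the non-cycling cells with Eomes under the limit, 48 at E15 and 35 at P2, Neurog2 was detected in 20.8% and 22.9% and Btg2 in 41.7% and 17.1%.

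**Figure D1:**
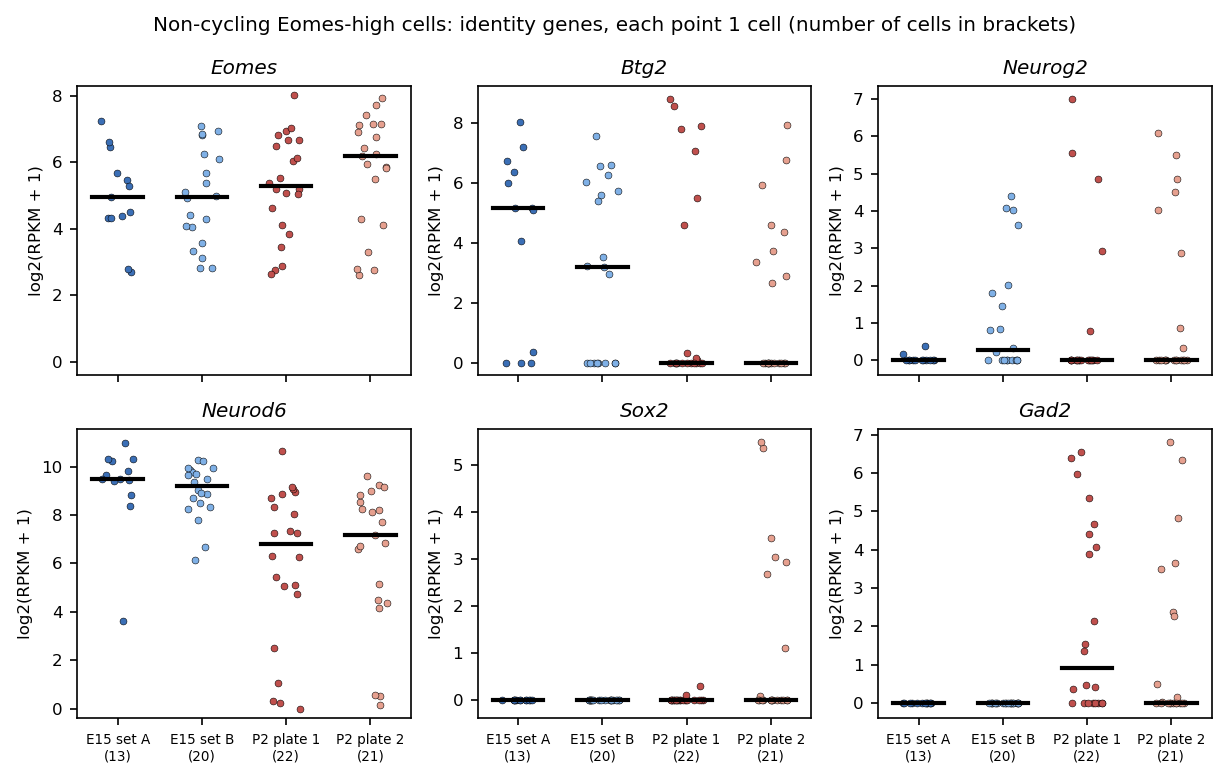
Level of 6 identity genes, log2(RPKM + 1), in each non-cycling Eomes-high cell (1 point per cell, bar at the median of the plate). Neurod6 lies above 2 on this scale in all E15 cells and falls to about 0 in some P2 cells, Sox2 appears in P2 plate 2 only, and Gad2 is at 0 in all E15 cells.

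Some P2 members carried genes that no E15 member did. Gad2, which encodes an enzyme that makes the inhibitory transmitter GABA, was listed at 0 in all 33 E15 members and detected in 18 P2 members, with a highest value of 110 RPKM. Its difference of 1.81 (1.45 to 2.16) made it one of the 48 genes called higher at P2, 0.633% of the 7586 measured genes. It was at 5 RPKM or more in 13 P2 members (30.2%, 17.2 to 46.1%), 8 of plate 1 and 5 of plate 2. The rest of the interneuron list was rarely detected: Gad1, Dlx5, Dlx6, Dlx6os1, Lhx6 and Calb2 were at 0 in every member, and no member of either age had 3 or more of the 13 listed genes. The summed RPKM of that list had a median of 0 (0 to 67.6) at E15 and 0.415 (0 to 110) at P2. In the other non-cycling cells Gad2 differed by 1.66, detected in 0% of E15 and 42.9% of P2 cells.

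The stem cell factor Sox2 was listed at 0 in all E15 members and detected in 7 P2 members (16.3%, 6.81 to 30.7%), all in plate 2, and 5 of these also carried Pax6. A count of 0 among 33 cells allows a share of up to 9.09% when 3 cells are taken as the limit of a zero count, and of up to 10.6% by the exact interval. Pax6 was detected in 10 E15 and 16 P2 members and Hes1, a Notch effector of radial glia, in none. Over the 6 measured of 16 radial glia genes the median difference was 0.37 (-0.15 to 0.93), none was called, and the median was 0.080 without E15 set A, 0.64 without P2 plate 1 and -0.092 without P2 plate 2. These 6 genes were divided: Ptprz1 stood at 0.93, Sox2 at 0.57, Ptn at 0.53 and Pax6 at 0.21, but Vim at -1.05 and Fabp7 at -0.44. Of the astrocyte list only Sparcl1 was measured. It was at 0 in all E15 members and detected in 9 P2 members (highest 318 RPKM), with a difference of 1.12 (0.96 to 1.27). No microglial or endothelial gene of the lists was measured, and C1qa, Tyrobp, Cldn5 and Kdr were at 0 in all members. Of 8 oligodendrocyte lineage genes 1 was measured and none was called, and Olig2, Pdgfra and Sox10 were at 0 in all members.

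The rule removed cells with Top2a or Mki67 at 1 RPKM or more, not every sign of the cell cycle. At least 3 of 16 S phase genes were detected in 7 E15 members (21.2%, 8.98 to 38.9%) and 11 P2 members (25.6%, 13.5 to 41.2%), and at least 3 of 15 G2/M genes in 0 E15 members and 3 P2 members, all of plate 2. No gene of either list was called.

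Depth differed less between the ages than the number of detected genes did. Reads assigned to genes, estimated from the RPKM step of 1 read, had a lowest, median and highest value of 0.921, 3.31 and 5.69 M (mega-reads) in E15 members and 1.47, 2.92 and 5.40 M at P2. Detected genes per cell were 914, 2871 and 3660 at E15 and 1434, 2036 and 2800 at P2, so that the medians differed by -835 and the ranges overlapped. The median share of RPKM from mitochondrially encoded genes was 8.78% (2.22 to 42.8%) in E15 members and 7.50% (4.13 to 14.2%) in P2 members, with 3 E15 cells above 20%. Xist was detected in 14 E15 and 3 P2 members and a Y-linked gene in 12 and 27, so sex-linked transcripts differed between the ages too. In 4 E15 members both were found. No columns were identical, and the highest correlation between any 2 cells was 0.627. Each plate holds cells of 1 age only, so age, region and plate cannot be told apart here. The ranges over pairs of plates show the spread between plates of the same age. The part of detected genes or sex in the differences below was not tested, except where a value is given.

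**Figure D2:**
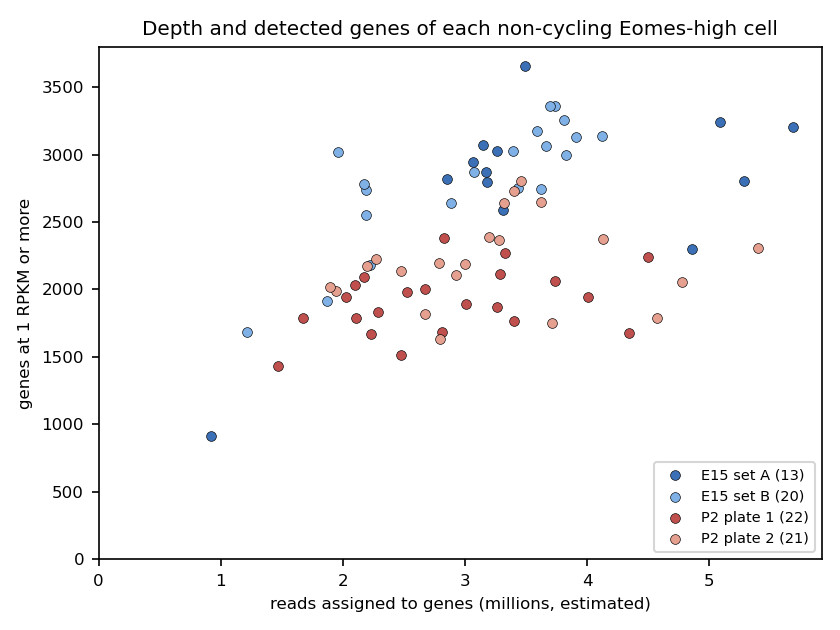
Genes detected at 1 RPKM or more (vertical axis) against estimated reads assigned to genes in M, mega-reads (horizontal axis), 1 point per non-cycling Eomes-high cell, coloured by plate. At similar depth most P2 cells lie below most E15 cells, with medians of 2036 and 2871 detected genes.

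Across all genes the comparison asked how non-cycling Eomes-high cells differ before and after birth. Most measured genes had a small negative difference: the median was -0.28 (-0.31 to -0.21) and the middle 90% lay between -1.25 and 0.58. Of 7586 genes, 48 were called higher at P2 (0.633%) and 192 lower (2.53%), and counts of calls in the lists below stand beside these shares. In all 4 pairs 733 genes were positive (9.66%) and 3045 negative (40.1%). Plates of one age also differed: the SD over genes was 0.586 for P2 minus E15, 0.668 for E15 set B minus set A and 0.526 for P2 plate 2 minus plate 1. Leaving out 1 plate leaves only 2 pairs to satisfy, and the shares of measured genes called higher and lower were then 1.23% and 6.46% without E15 set A, 1.39% and 10.2% without set B, 1.78% and 4.29% without P2 plate 1, and 1.35% and 6.66% without plate 2. The balance turned over when cells were matched on detected genes, which left 10 per age and 1 pair of plates: 14.3% were then called higher and 9.34% lower, with a median of -0.029. Those 10 E15 cells include the 3 members above 20% mitochondrially encoded (42.8, 32.0 and 24.6%), which had 1687, 1912 and 2179 detected genes. This limit holds for every matched value given here, and the part of these 3 cells in such values was not tested.

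Of the genes higher at P2, Sema3c, a secreted semaphorin that guides axons and migrating neurons, had the largest difference under the naming rule. It ranged from 0 to 144 RPKM at E15 (median 0.876) and from 0 to 426 at P2 (median 81.7). It was detected in 16 of 33 E15 and 39 of 43 P2 members, so the groups overlapped through the E15 cells that carried it and the few P2 cells that did not. The difference was 3.66 (3.38 to 3.99), with mean values of 14.4 and 97.2 RPKM. Its gene spans bases 17574281 to 17730268 of chromosome 5, plus strand (GRCm38).

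Fam84a was next and was detected in 13 E15 and 37 P2 members. It ranged from 0 to 368 RPKM at E15 (median 0.0277, mean 48.8) and from 0 to 1320 RPKM at P2 (mean 186, plate medians above 100). The difference was 3.65 (3.41 to 3.87). It was 1.91 on the log2 of the mean RPKM, a scale on which the few E15 cells with high values weigh more.

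Spry2, a Sprouty protein that dampens receptor tyrosine kinase signals (chromosome 14, 105891947 to 105896819, minus strand), was detected in 11 E15 members, with a median of 0 and a highest value of 29.2 RPKM. It was detected in 31 P2 members, with a median of 31.7 and a highest value of 361 RPKM. The difference was 3.13 (2.37 to 3.73). Most E15 members and 12 of the 43 P2 members were under 1 RPKM, so the groups overlapped at low values.

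Cdk6, a kinase partner of D-type cyclins in G1, had a median of 6.42 RPKM (0 to 99.1) in E15 members and of 61.2 (0.00965 to 237) in P2 members. The difference was 2.68 (2.02 to 3.57), in cells chosen for Top2a and Mki67 under 1 RPKM. The other G1 genes measured, Ccnd2 and Cdk4, stood at 0.74 (-0.05 to 1.68) and -0.59 (-1.33 to 0.15) and were not called.

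The POU-domain factors Pou3f2 and Pou3f3, regulators of upper layer neuron production, were detected in all 43 P2 members. Pou3f2 had a median of 61.5 RPKM (0 to 433) at E15 and 258 (8.27 to 1077) at P2, and Pou3f3 of 22.3 (0 to 151) and 137 (2.49 to 401). The difference of Pou3f2 was 2.60, and it depended on the E15 plate: the pairs ran from 1.08 to 4.65, and the value was 1.67 without set A and 4.03 without set B. Pou3f3 differed by 2.17 (1.70 to 2.80).

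Egr1, an immediate early transcription factor, was detected in 3 E15 members and 24 P2 members, with medians of 0 and 1.79 RPKM and a highest P2 value of 668. Its difference was 2.42 (2.13 to 2.67) and 1.59 without the 13 P2 members that carried Gad2 at 5 RPKM or more. Pcp4, a calmodulin-binding protein, was detected in 17 and 35 members and differed by 2.53 (1.70 to 3.43). The remaining genes of the 12 were Kdelr2 (2.65), which returns proteins to the endoplasmic reticulum, Ssr1 (2.57), a subunit of the complex at the translocon, Lyrm4 (2.44), a factor of iron-sulfur cluster assembly, and Acot2 (2.23), a mitochondrial acyl-CoA thioesterase. Lyrm4 was at 1.55 without the cells in which Xist was detected.

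**Figure D3:**
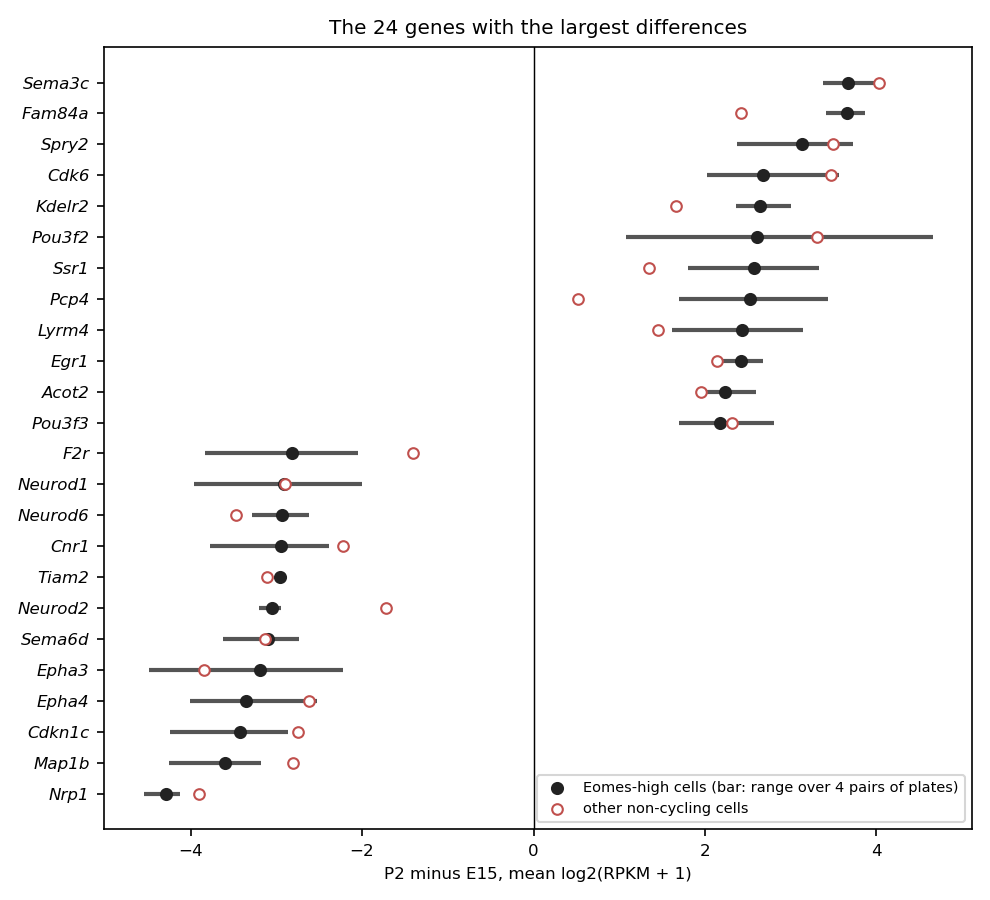
Difference P2 minus E15 in mean log2(RPKM + 1) for the 24 genes named for the size of their difference, in non-cycling Eomes-high cells (filled, bar over the 4 pairs of plates) and in the other non-cycling cells (open). Sema3c is at 3.66 and Nrp1 at -4.29, and all 24 genes have the same sign in both sets of cells.

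Among the genes lower at P2, Nrp1, the neuropilin that binds class 3 semaphorins such as Sema3c, had the largest difference. It was detected in 31 of 33 E15 members, with a median of 45.3 RPKM (0 to 221), and in 11 of 43 P2 members, with a median of 0 (0 to 169). The difference was -4.29 (-4.55 to -4.12), a narrow range over the plates. On the log2 of the mean RPKM it was -2.69. Its gene spans bases 128358604 to 128503363 of chromosome 8, plus strand.

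The proneural-type factors of young glutamatergic neurons were lower together. Neurod2 (chromosome 11, 98325415 to 98329648, minus strand) had a median of 16.5 RPKM (0.0722 to 66.8) in E15 members and 0.0846 (0 to 37.9) in P2 members, with detection in 30 and 12 cells. Its difference was -3.05 (-3.20 to -2.94). Neurod6 remained in 37 P2 members but at a lower level, with a median of 145 RPKM (0 to 1601) against 712 (11.2 to 2034) at E15 and a difference of -2.93 (-3.28 to -2.62). On the log2 of the mean RPKM that difference was -1.56, and after matching on detected genes -4.67. Neurod1, expressed as cells leave the progenitor state, was detected in 31 and 26 members and differed by -2.92 (-3.96 to -2.00), or by -1.81 on the log2 of the mean RPKM.

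Map1b, a microtubule-associated protein of growing axons, had a median of 145 RPKM (4.29 to 790) at E15 and 20.5 (0 to 237) at P2, and differed by -3.60 (-4.25 to -3.18), or -2.15 after matching on detected genes. Cdkn1c, which encodes the p57 kinase inhibitor, was detected in 21 E15 and 3 P2 members and differed by -3.42 (-4.24 to -2.86). Guidance genes followed. Epha4 and Epha3, receptors of ephrins, differed by -3.35 (-4.01 to -2.53) and -3.19 (-4.49 to -2.23), with detection in 32 and 31 E15 members against 16 and 21 P2 members, and by -1.99 and -1.85 on the log2 of the mean RPKM. Sema6d, a transmembrane semaphorin, was detected in 28 E15 members and 1 P2 member and differed by -3.10 (-3.62 to -2.74).

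Tiam2, an exchange factor for Rac, was detected in 21 E15 members (median 14.2, highest 98.6 RPKM) and was listed at 0 in every P2 member, so no fold is given. A zero count among 43 cells allows a share of up to 6.98% by the limit of 3 cells and 8.22% by the exact interval. Cnr1, the CB1 cannabinoid receptor, and F2r, a thrombin receptor, completed the 12 at -2.95 (-3.77 to -2.39) and -2.82 (-3.83 to -2.04). The libraries carry no strand, and 7 of the 24 genes have exons that overlap another gene: Cdk6, Pcp4, Lyrm4, Nrp1, Cdkn1c, Tiam2 and Neurod1.

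**Figure D4:**
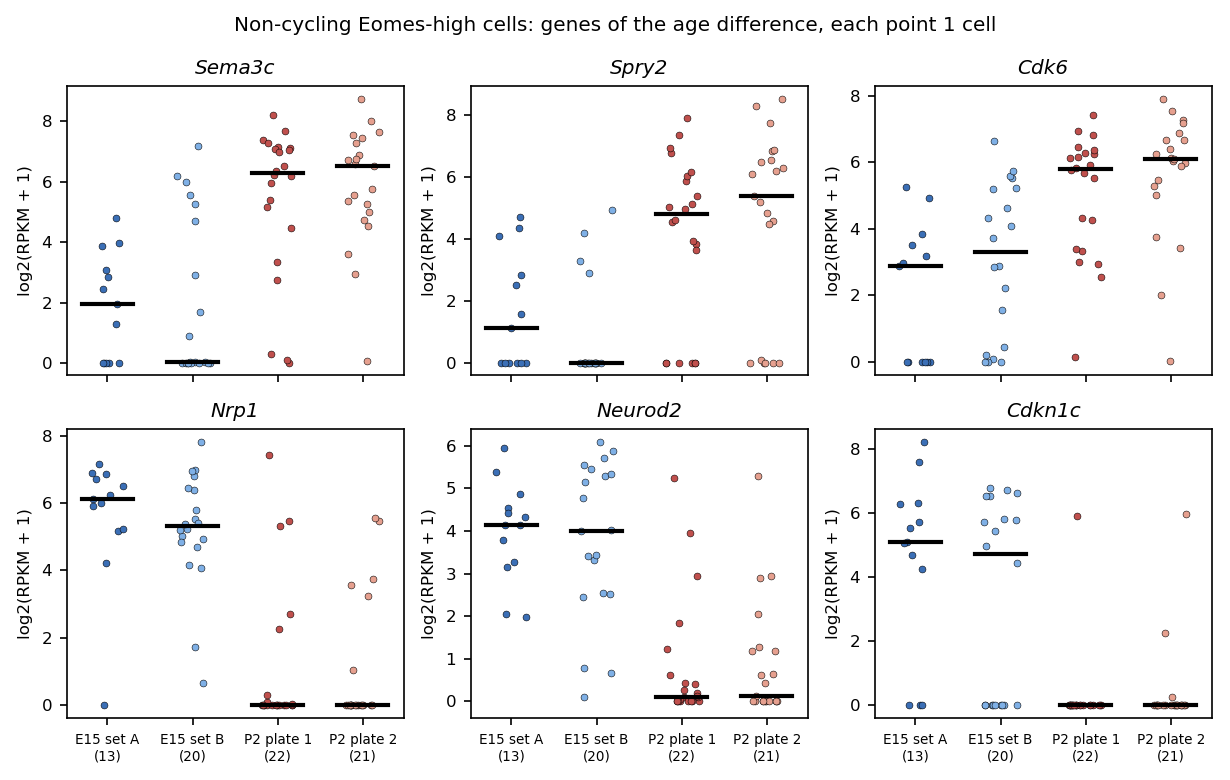
Level of 6 genes of the age difference, log2(RPKM + 1), in each non-cycling Eomes-high cell by plate (bar at the plate median). Sema3c, Spry2 and Cdk6 have higher plate medians in both P2 plates and Nrp1, Neurod2 and Cdkn1c in both E15 plates, with overlap between the ages for all 6.

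The glutamatergic neuron list had the lowest median of the lists plotted. Of 13 genes 12 were measured, all 12 were negative in all 4 pairs, and 9 were called lower, where the background was 2.53%. The median was -2.41 (-2.56 to -1.95). Besides the genes above, Bcl11b (Ctip2), which specifies corticospinal neurons, was detected in 26 E15 and 3 P2 members and differed by -2.72 (-2.98 to -2.40). Bcl11a differed by -2.63 (-3.74 to -1.33), Fezf2 by -1.69 (-2.24 to -1.32) and Nhlh2 by -1.52 (-1.65 to -1.43). Tbr1, the T-box factor that follows Eomes, was at -0.74 (-0.97 to -0.40) and was not called.

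Pan-neuronal genes were divided. Of 15 measured, 6 were called lower and none higher, beside the 2.53% and 0.633% of all genes, with a median of -0.83 (-1.20 to -0.57). The RNA-binding proteins Elavl4 and Elavl3 differed by -2.37 (-3.31 to -1.55) and -1.98 (-2.10 to -1.89), and the adhesion molecules L1cam and Cntn2 by -2.16 (-2.41 to -1.77) and -1.66 (-1.76 to -1.59). L1cam was detected in 20 E15 members and no P2 member. Map2, a dendritic microtubule-associated protein, differed by -1.74 (-2.05 to -1.52). In the other direction, Mapt stood at 1.35 (0.63 to 1.92) and Stmn2 at 1.15 (0.68 to 1.63), positive in all pairs without meeting the rule for a call.

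Laminar genes did not move as blocks. Of 8 measured deep layer genes Bcl11b and Fezf2 were called lower and Pcp4 higher, with a median of -0.67 (-0.87 to -0.64). Of 9 upper layer genes Pou3f2 and Pou3f3 were called higher and 1 lower, with a median of 0.62 (-0.07 to 0.76) that was 0.14 without E15 set A and 0.41 without P2 plate 2. Cux2, a homeobox gene of upper layers, was at 0.70 (0.50 to 0.87), and Unc5d, a netrin receptor of upper layer neurons, at 0.62 (-0.07 to 1.59). Several of these genes are in the glutamatergic list too.

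Among intermediate progenitor genes 11 of 15 were measured, 2 were called lower and none higher, beside the 2.53% and 0.633% of all measured genes. The list median was -0.97 (-1.86 to -0.44), and it was -1.03 in the other non-cycling cells. Eomes is in that list and was set by the rule. Mfap4, an extracellular matrix protein, was detected in 18 E15 and 3 P2 members and differed by -2.54 (-3.39 to -1.94). Nhlh1, a bHLH factor of newly postmitotic cells, was detected in 16 E15 members and 1 P2 member and differed by -2.01 (-2.84 to -1.45). Insm1 was at -0.06 (-0.54 to 0.59), Sstr2 at -0.25 (-0.84 to 0.28) and Hes6 at -0.26 (-0.44 to -0.02). The list median was -0.37 without E15 set A and 0.038 on the log2 of the mean RPKM.

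For axon guidance and migration, ligands and receptors were read apart. Of 11 measured guidance ligands, Sema3c was called higher and Sema6d and Efnb2 lower (Efnb2 -1.84, -2.32 to -1.39), with a median of -0.32 (-0.43 to -0.17) that was -0.18 without E15 set A and -0.058 without set B. It turned to 0.26 on the log2 of the mean RPKM and 0.031 after matching. Of 18 measured receptors 5 were called lower and none higher, against 2.53% and 0.633% of all measured genes, with a median of -0.93 (-1.09 to -0.66): Nrp1, Epha3, Epha4, Epha5 (-2.35, -2.86 to -1.65) and Plxna2 (-1.98, -2.85 to -1.36), a plexin co-receptor. Of 13 migration effectors Tiam2 alone was called, and the median was -0.83 (-1.09 to -0.33), or -0.47 without P2 plate 1.

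Calls in the signalling lists stand beside the 0.633% of all measured genes called higher and the 2.53% called lower. In the Wnt lists 1 of 4 measured receptors, 1 of 7 transducers and 1 of 2 targets were called lower, and the 1 ligand was not called. Of 4 measured Wnt receptors Fzd1 was called lower: it was detected in 14 E15 members (highest 169 RPKM), reached at most 0.0513 RPKM in P2 members, and differed by -2.09 (-2.48 to -1.50). Ctnnb1, which encodes beta-catenin, was 1 of 7 transducers and differed by -2.53 (-2.82 to -2.23), detected in 29 and 20 members, and stood at -0.67 when cells were matched on detected genes. Mycn, a target of the pathway, was detected in 16 and 2 members and differed by -1.98 (-2.29 to -1.70). Of 6 receptor tyrosine kinase feedback inhibitors Spry2 was called higher and Dusp14, a phosphatase of MAP kinases, lower: Dusp14 was detected in 17 E15 members (highest 203 RPKM) and listed at 0 in all P2 members. None of the 8 Notch modifiers, 2 Notch ligands, 1 receptor and 1 target measured was called.

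Among immediate early genes Egr1 was the one called of 7 measured, and the list median was 0.31 (-0.12 to 0.63). It was 0.52 and 0.055 without E15 set A and B, and 0.56 and 0.065 without P2 plate 1 and 2, and -0.15 in cells with Eomes at 20 RPKM or more. Fos was detected in 9 E15 and 14 P2 members, at 0.31 (-0.36 to 0.84), and Jun in 0 and 8, at 0.60 (0.56 to 0.63). None of 8 heat shock genes was called, with a median of -0.53 (-0.93 to -0.17) that was -0.32 without E15 set A and also without P2 plate 1, and that turned to 0.44 when cells were matched on detected genes.

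Of 8 measured cell cycle inhibitors 1 was called higher and 1 lower, beside the 0.633% and 2.53% of all measured genes. Btg1, an antiproliferative relative of Btg2, was called higher at 2.02 (1.24 to 2.65), with medians of 8.69 and 44.0 RPKM and detection in 22 and 38 members. Cdkn1c was the one called lower of 8 inhibitors, whose median was -0.64 (-0.95 to 0.08) and turned to 0.034 without E15 set B and 0.094 after matching on detected genes. Cdkn1b, the p27 inhibitor, was detected in all members of both ages and stood at 0.54 (-0.03 to 1.34).

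Temporal and regional genes gave 2 calls. Zbtb20, a zinc finger repressor of late-born cells, was detected in 24 E15 and all 43 P2 members and was called higher at 1.61 (1.09 to 2.36). In the late list of 8 genes the median was 0.31 (0.10 to 0.79), and 0.042 without E15 set A, 0.72 without set B and 0.20 without P2 plate 1. Luzp2 stood at 1.09 (0.96 to 1.18) and Nfix at 0.72 (0.50 to 1.04), while Nfia and Nfib, detected in every member, stood at -0.38 (-0.51 to -0.19) and -0.28 (-0.69 to 0.04). The early list, read by 4 measured genes, had a median of -0.83 (-1.01 to -0.52) and no call, with Igf2bp3 detected in 15 E15 and 2 P2 members and Igf2bp2 in 11 and 0. Hmga1, of the same list, went the other way, at 0.33 and positive in all 4 pairs. In the pallial identity list Nr2f1, an orphan nuclear receptor that patterns cortical areas, was the one called of 9, at -2.36 (-3.12 to -1.58). Matching the cells on detected genes turned its value to 0.44.

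Housekeeping lists were read as well, without being a fixed reference. None of 13 glycolysis genes was called (median -0.37, -0.80 to 0.04, with -0.073 without E15 set A, -0.70 without set B and 0.090 after matching on detected genes). Gapdh was detected in 30 of 33 E15 and 30 of 43 P2 members, so a 0 in a single cell does not show that a gene is silent there. Of 8 measured mitochondrially encoded genes mt-Nd5 was called lower, and the median was -1.03 (-1.34 to -0.35), or -0.34 without E15 set B. When cells were matched on detected genes mt-Nd5 turned to 0.30 and the list median was -0.26. Of the 13 listed mitochondrially encoded genes, mt-Nd4l, mt-Co2, mt-Co3 and mt-Atp8 were at 0 in all members, for a reason that was not tested.

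**Figure D5:**
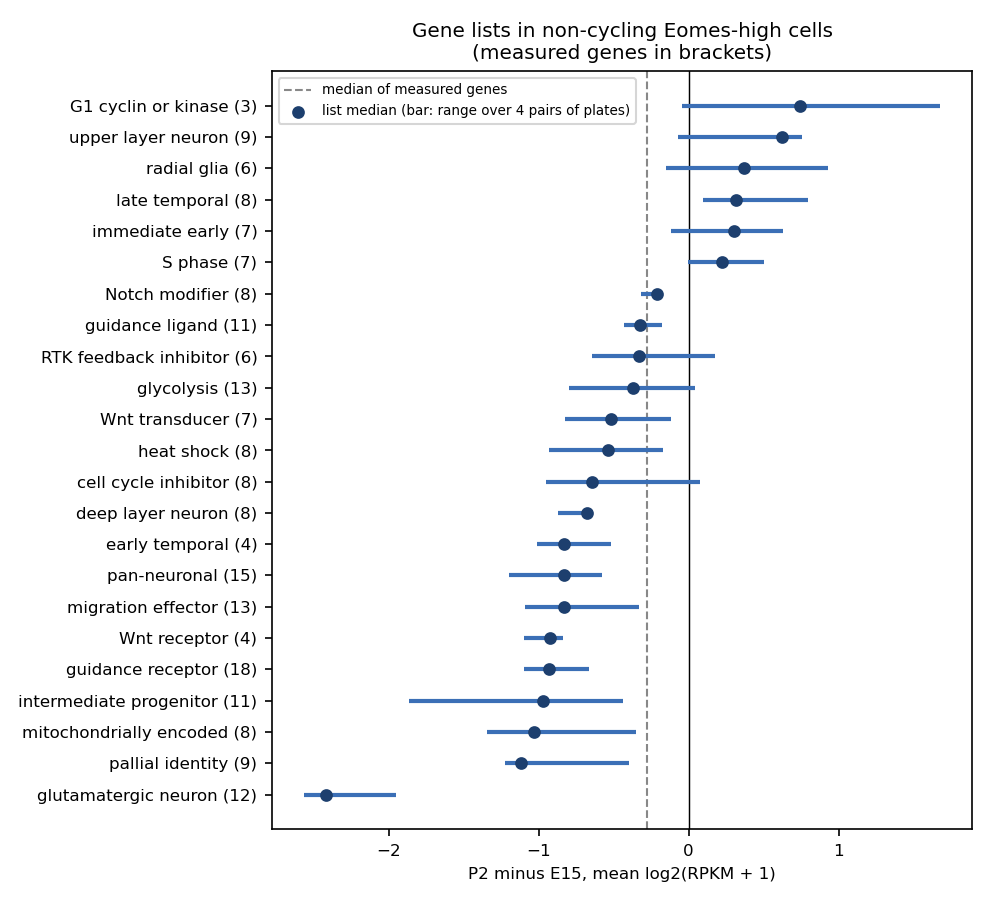
Median difference P2 minus E15 in mean log2(RPKM + 1) for 23 gene lists in non-cycling Eomes-high cells (point, with a bar over the 4 pairs of plates and the number of measured genes in brackets), beside the median of all measured genes (dashed, -0.28). List medians run from -2.41 for the glutamatergic neuron list to 0.74 for the G1 list of 3 genes, which was 0.18 without P2 plate 2 and 1.33 without plate 1.

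The other non-cycling cells, 48 at E15 and 35 at P2, gave a comparison made in different cells of the same plates. There 40 of 7460 measured genes were higher (0.536%) and 201 lower (2.69%), with a median of -0.26. All 24 genes named for their size had the same sign in these cells. Sema3c was at 4.03, Spry2 at 3.49, Cdk6 at 3.47, Nrp1 at -3.90 and Neurod6 at -3.47 there.

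For some genes the values stood further apart. Pcp4 was at 2.53 in the Eomes-high cells and 0.52 (-1.09 to 1.88) in the others, Fam84a at 3.65 and 2.42 (1.88 to 3.02), Neurod2 at -3.05 and -1.72 (-2.24 to -1.22), and F2r at -2.82 and -1.41 (-2.05 to -0.84). For Neurod2 and Fam84a the gap between the differences kept its sign in all 4 pairs, at -1.34 (-1.90 to -0.79) and 1.23 (0.85 to 1.53). For Pcp4 it did not, at 2.01 (-0.02 to 4.37), nor did it for F2r, at -1.41. The gap was at least 1 log2 unit in all pairs for 40 of 6645 genes in the positive direction (0.602%) and 31 in the negative (0.467%). These gaps compare cells of the same plates and were not tested.

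Within each age, Eomes and the genes above were loosely related across cells. Spearman's rho of Eomes with Neurod6 was 0.10 over 33 E15 cells and 0.033 over 43 P2 cells, with Neurog2 0.089 and -0.30, with Btg2 0.40 and -0.083, and with detected genes -0.14 and 0.24. Cells share plates and differ in depth, so these values describe the cells and carry no p-value.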

How the data were processed

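Single-cell cDNA was sequenced in 121 E15 and 109 P2 cells. Per the submitters' processing notes, the tools were bcl2fastq 2.15.0.4, cutadapt 1.9.1, STAR and featureCounts on GRCm38.p4, with no annotation or counting options given in the sources used here. The deposited values are RPKM computed by the authors, 1 column per cell. With GENCODE M21 exon lengths, a median of 81.7% of low values in E15 members and 79.3% in P2 members lay within 0.02 of a whole read, which gave the estimated depth. A P2 column holding only zeros was dropped. Ages came from the labels, plates from title formats (an inference).

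Differences of mean log2(RPKM + 1) were taken over all genes. Members and lists were chosen with earlier results of these data known. Named genes were the 12 largest called in each direction among those detected in 25% or more of member cells of either age, without predicted models, mitochondrial, Xist, Tsix or Y-linked genes. To these came up to 4 genes per list with the largest absolute difference and the 6 in each direction departing most from the other non-cycling cells. Other list genes (such as Tbr1, Insm1, Cux2, Mapt and Gapdh) were picked after their values were seen. Some members of the lists are counted but not reported by name here.

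The libraries have no molecular identifiers and their reads are not independent, so intervals and limits cover counting error only. Software was matplotlib 3.10.9, scipy 1.17.1, pandas 2.3.3, numpy 2.4.6 and Python 3.11.15, and the steps were tested on simulated data.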

Additional observations from a re-analysis of the deposited data

Results flagged for a closer look

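For 6 named genes the difference P2 minus E15 had one sign in the non-cycling Eomes-high cells and the other in the remaining non-cycling cells. This held in all 4 pairs of plates. All but Hmga1 were named for departing most between these same 2 sets of cells, so opposite signs partly follow from that choice. Only named measured genes were searched. None of these contrasts between the 2 sets of cells was tested, and the values are log2 units. Ska2, a spindle and kinetochore protein, was at 0.85 in the Eomes-high cells and -1.66 in the others, 2.52 apart. Celf4, an RNA-binding protein of neurons, was at 0.67 and -1.76, 2.44 apart. Hspa5, a chaperone of the endoplasmic reticulum, was at 0.49 and -1.88, 2.37 apart. Ndufa1, a subunit of respiratory complex I, was at 1.03 and -1.31, 2.34 apart. Epb41l3, a membrane skeleton protein, was at -1.39 and 0.77, a gap of -2.16. Hmga1, a chromatin protein of early progenitors, was at 0.33 and -0.30, 0.63 apart, and was detected in 2 E15 and 5 P2 Eomes-high cells.

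None of the 6 met the rule for a call in the Eomes-high cells. Over the alternatives Ska2 stayed positive there (0.34 to 1.27) and Epb41l3 negative (-2.34 to -0.72), whereas Celf4 ran from -0.058 to 1.60 and Hspa5 from -0.90 to 0.87.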

How the results depend on the processing

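The 24 genes named for their size kept their sign and at least 1 log2 unit in all 480 values over 20 alternatives. Part of this was fixed in advance. The genes were chosen for at least 1 log2 unit in every pair of plates, so leaving out a plate could not undo it. The alternatives without a filter on low values and with a difference of at least 2 leave each gene's value unchanged. Of the 480 values, 38 moved by over 1.5 times. The shares of measured genes called higher and lower moved to 1.40% and 10.6% with a pseudocount of 0.1, 3.77% and 5.92% for the log2 of mean RPKM, 1.12% and 8.26% on the TPM scale, 0.266% and 1.06% without a filter on low values, and 0.0923% and 0.330% for a difference of at least 2. With a plate left out, 2 pairs remained and the shares were 1.23% and 6.46% (without E15 set A), 1.39% and 10.2% (set B), 1.78% and 4.29% (P2 plate 1), and 1.35% and 6.66% (plate 2). Matching on detected genes left 10 cells per age and 1 pair of plates, with detected genes at -182 and shares of 14.3% and 9.34%, so that higher calls then outnumbered lower ones. The matched E15 cells include the 3 members above 20% mitochondrially encoded. The median difference was -0.59 with a pseudocount of 0.1, -0.11 for the log2 of mean RPKM, -0.44 on the TPM scale, -0.22 with median ratios, -0.033 without a filter, -0.34 without P2 plate 2 and -0.029 when matched. Shares stayed within 1.5 times without cells above 20% mitochondrially encoded, without the cells carrying Gad2, and without those carrying Xist. The Xist alternative was chosen after seeing the data. Without the E15 set B cells numbered 62 to 69 the shares also stayed within 1.5 times, at 0.553% and 2.67%.

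Signs turned for list medians under several alternatives. For the log2 of mean RPKM, the intermediate progenitor list was at 0.038, Notch modifiers at 0.16, guidance ligands at 0.26 and RTK feedback inhibitors at 0.041. When matched, Notch modifiers were at 0.010, guidance ligands at 0.031, heat shock at 0.44, pallial identity at 0.25, RTK feedback inhibitors at 0.075, cell cycle inhibitors at 0.094 and glycolysis at 0.090, and the genes Tomm22 at 0.12, Nr2f1 at 0.44 and mt-Nd5 at 0.30. With Top2a and Mki67 both at 0, Notch modifiers were at 0.060. Lists whose sign already differed between pairs turned too: cell cycle inhibitors to 0.034 and S phase to -0.036 without E15 set B, radial glia to -0.092 and S phase to -0.074 without P2 plate 2, S phase to -0.054 and immediate early to -0.15 with Eomes at 20 RPKM or more, S phase to -0.029 without cells with 3 or more S phase or G2/M genes, and immediate early to -0.0080 without the cells carrying Gad2. The cause was not tested. Leaving out cells with Neurod6 at 5 RPKM or more left 0 E15 and 8 P2 cells and gave no value. No paired analysis was possible because cells carry no replicate number shared between the ages. A transcript under 1 RPKM in a cell may be missed at these depths.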
